A study of Mus musculus with 12 samples.

Results

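Cardiac bodies were compared with embryonic bodies, the step between day 7 and day 14 in a culture of mouse embryonic stem (ES) cells that were being turned into cardiomyocytes. The comparison used the 2 samples labelled cardiac bodies (day 14) and the 2 labelled embryonic bodies (day 7), chosen by their titles, out of 6 gene-level samples. The other 2 samples, undifferentiated ES cells at day 0, entered the same fit and are quoted where a level at day 7 is set beside its starting point. All 23332 transcript clusters of the array's gene-level table were tested, of which 14996 carried 1 gene symbol. All stages were grown in a DMEM-based medium with 10% serum, and no stage had a treatment or a genetic change of its own. The sources used here do not give the ES cell line, any sorting, or whether replicates were grown apart from each other. The p-values therefore reflect the scatter of these 6 arrays, part or all of which could be technical.

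In embryonic bodies, clusters of cells in suspension, the pluripotent program is lost and the germ layers are laid down, with early mesoderm, endothelium, blood and epithelia side by side. A cardiomyocyte that forms in them first switches on its transcription factors, and then assembles sarcomeres, a calcium store, its set of ion channels and a large mitochondrial supply that burns fatty acids. Early heart tissue also contains endothelium, a jelly rich in hyaluronan and versican, and mesenchyme derived from epithelia.

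Values are log2 array signals, so a difference of 1 is a doubling of signal, and levels of different genes are not comparable with each other. A change is the mean of the day 14 samples minus that of the day 7 samples, ± its standard error in limma (n = 2 per stage), and a gene rose or fell only where the Benjamini-Hochberg adjusted p of limma over all clusters was under 0.05. At that threshold 730 clusters differed (3.13% of those tested): 493 were higher in cardiac bodies (2.11%) and 237 were lower (1.02%), while 2224 and 1904 had an unadjusted p under 0.05. The higher calls were 67.5% of all calls, and reached further: 47 clusters rose by 4 or more and 2 fell by as much. Across clusters the day 14 samples correlated with each other at 0.973 and the day 7 samples at 0.978, and day 14 samples correlated with day 7 samples at 0.941 to 0.956. In the lists below, 1 cluster stands for each gene, and on that basis 2.9% of 14847 genes rose and 1.29% fell. The median change of all clusters was 0.01. Where 1 sample is left out below, its stage keeps 1 array with no spread of its own, so what passes then is only a description. RNA came from whole cultures, in which fewer cells of a type and less RNA per cell cannot be told apart.

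**Figure D1:**
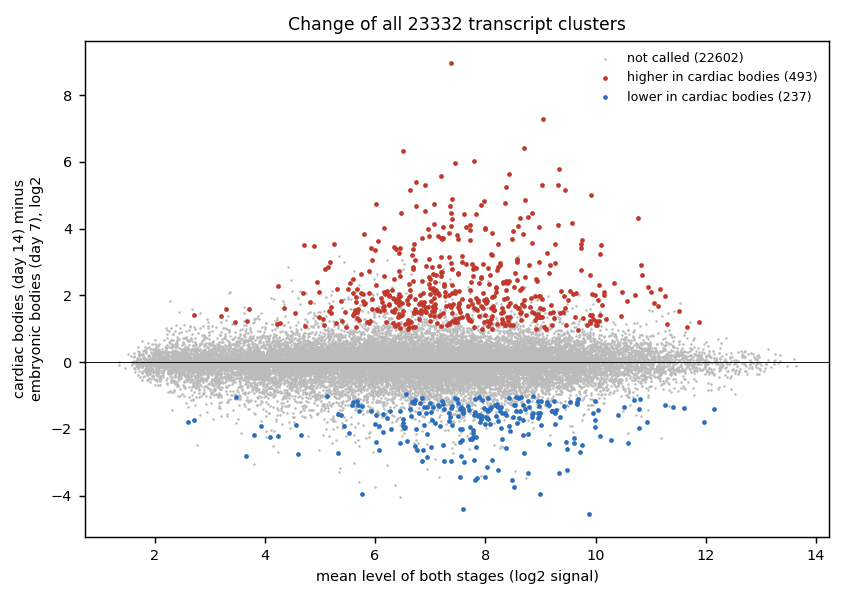
Change in cardiac bodies relative to embryonic bodies (day 14 minus day 7, log2, vertical axis) against the mean level of both stages (log2 signal, horizontal axis) for all 23332 transcript clusters, each a point. The 493 clusters that rose (red) reach 8.95, whereas the 237 that fell (blue) reach -4.55.

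The label of the day 14 samples was checked against cardiomyocyte markers. Of 13 markers 10 were measured and all 10 rose, their mean log2 signal being 11.2 and 11.0 in the cardiac bodies, against 5.87 and 6.03 in the embryonic bodies, and 5.56 and 5.58 in the ES cells. Skeletal muscle markers averaged 6.0 and 5.75 in cardiac bodies, against 5.21 and 5.28 in embryonic bodies and 5.73 and 5.68 in ES cells, with 1 of 21 risen. The pluripotency markers averaged 9.59 and 9.91 in cardiac bodies, against 8.06 and 7.98 in embryonic bodies and 10.3 and 10.4 in ES cells. Genes such as Myh6, Myh7, Actc1, Tnni3 and Ttn have no row with their symbol alone and were not analysed here.

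The thick filament and M band form the motor part of the sarcomere. All 7 measured members of the list for these parts rose, with a median change of 4.73. Myl2, the ventricular regulatory light chain of myosin, had log2 signals of 11.78 and 11.92 in cardiac bodies, against 2.84 and 2.96 in embryonic bodies. Its change of 8.95 ± 0.18 was the largest in the table (adjusted p = 0.0003), and its day 7 level was no higher than the 3.02 and 3.26 of ES cells. Myl7, the atrial regulatory light chain, had 12.54 and 11.91 in cardiac bodies, against 6.31 and 6.56 in embryonic bodies (5.79 ± 0.29, adjusted p = 0.00279). Mybpc3, myosin binding protein C of the heart, rose by 4.77 ± 0.20 and Smpx, a small muscle protein, by 4.73 ± 0.23. The myomesins, which link thick filaments at the M band, rose too: Myom1 by 4.28 ± 0.17 and Myom2 by 3.36 ± 0.19. Leaving out any of the 4 samples kept 6 or 7 of the members above the threshold.

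Of the thin filament, 5 of 14 members rose and none fell (0 also at an unadjusted p under 0.05). Tnnt2, cardiac troponin T, had 12.54 and 12.29 in cardiac bodies, against 7.52 and 7.31 in embryonic bodies (5.0 ± 0.19, adjusted p = 0.00195), and Tnnc1, troponin C of heart and slow muscle, rose by 4.34 ± 0.31. Tnni1, the troponin I of the fetal heart, rose by 3.64 ± 0.32, from 8.29 and 7.59 in embryonic bodies, with 5.75 and 5.40 in ES cells. These troponins had all left the level of ES cells by day 7 already. Day 7 minus day 0 was 1.98 in Tnnt2, 1.83 in Tnnc1 and 2.37 in Tnni1 (adjusted p = 0.0054, 0.0228 and 0.0129 in limma). The pointed-end cap gene Tmod1 rose by 3.92 ± 0.37. The troponins of fast skeletal muscle did not pass the test: changes were 0.24 ± 0.23 for Tnni2, 0.24 ± 0.23 for Tnnc2 and 0.16 ± 0.27 for Tnnt3, and the last was -0.17 without replicate 1 of day 14. Without that replicate 2 thin filament genes passed, Tnnt2 and Tnnc1 among them, and without each of the others 4 or 5.

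The Z disc, where thin filaments are anchored, and the costamere, its link to the membrane, had 15 of 28 members risen and none fallen (0 at an unadjusted p under 0.05), with a median of 1.96. Ankrd1, a titin-binding protein that responds to load, had 12.04 and 11.79 in cardiac bodies, against 5.0 and 5.97 in embryonic bodies (6.43 ± 0.36, adjusted p = 0.00328). Actn2, the alpha-actinin of muscle, had 11.52 and 10.99 against 5.60 and 5.64 in embryonic bodies (5.63 ± 0.23), and no sample of one stage came near the other. Myoz2, a calcineurin-binding Z disc protein, rose by 5.39 ± 0.28, Popdc2, a membrane protein that binds cyclic AMP, by 5.15 ± 0.31, and Csrp3, a LIM protein, by 4.82 ± 0.31. Actn3, the alpha-actinin of fast fibres and a paralog of Actn2, had 7.07 and 7.31 in cardiac bodies, against 5.72 and 6.19 in embryonic bodies (1.24 ± 0.23, adjusted p = 0.0556). ES cells had 8.01 and 7.94, above both later stages. Of the 28 members 27 had their higher day 14 signal in replicate 1, with a median difference of 0.53 between the replicates, and its part in the result was not tested. The count was 8 without replicate 2 of day 7, 9 without replicate 1 of day 7, 10 without replicate 1 of day 14 and 14 without replicate 2 of day 14.

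Promoter windows of 4 genes that rose are shown because their sequences hold motifs long known from muscle genes close to the start. They run from 250 bases before to 50 after the RefSeq start (build GRCm38.p6), in the direction of transcription, with matches on either strand in capitals. Both strands were searched for the CArG box, which serum response factor binds, the MEF2 box, GATAA, the core of GATA factor sites, and CATTCC, the M-CAT element. These 4 genes were picked after their matches were seen.
Myl7: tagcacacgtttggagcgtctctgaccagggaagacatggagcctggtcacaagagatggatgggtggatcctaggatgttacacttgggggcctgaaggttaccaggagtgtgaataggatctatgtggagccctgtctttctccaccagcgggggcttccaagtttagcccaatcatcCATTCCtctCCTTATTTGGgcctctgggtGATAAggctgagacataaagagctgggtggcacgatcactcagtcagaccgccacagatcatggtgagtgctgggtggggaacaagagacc
Ankrd1: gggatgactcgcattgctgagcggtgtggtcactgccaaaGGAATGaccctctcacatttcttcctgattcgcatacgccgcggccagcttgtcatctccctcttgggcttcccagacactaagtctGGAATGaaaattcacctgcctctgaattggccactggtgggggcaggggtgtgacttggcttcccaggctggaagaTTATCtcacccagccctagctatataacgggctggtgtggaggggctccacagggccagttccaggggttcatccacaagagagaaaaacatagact
Myoz2: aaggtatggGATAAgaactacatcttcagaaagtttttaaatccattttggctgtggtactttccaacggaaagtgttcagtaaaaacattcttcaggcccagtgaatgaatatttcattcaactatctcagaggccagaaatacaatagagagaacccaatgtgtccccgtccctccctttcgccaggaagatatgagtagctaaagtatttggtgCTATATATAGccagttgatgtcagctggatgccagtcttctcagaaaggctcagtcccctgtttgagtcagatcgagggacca
Nppa: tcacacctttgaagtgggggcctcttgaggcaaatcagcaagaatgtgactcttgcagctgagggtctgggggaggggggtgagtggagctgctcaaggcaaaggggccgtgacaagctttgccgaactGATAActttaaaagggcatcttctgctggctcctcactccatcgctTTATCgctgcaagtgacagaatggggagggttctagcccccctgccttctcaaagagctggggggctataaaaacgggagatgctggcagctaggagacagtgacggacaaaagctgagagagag
The Myl7 window (chr11:5898733-5899032, minus strand) holds CATTCC at -70 to -65, a CArG box at -61 to -52 and GATAA at -41 to -37, all relative to the start. In Ankrd1 (chr19:36119795-36120094, minus strand) CATTCC lies on the other strand at -210 to -205 and at -123 to -118, and GATAA, likewise, at -47 to -43. Myoz2 (chr3:123034938-123035237, minus strand) has GATAA at -241 to -237 and a MEF2 box at -33 to -24. Nppa (chr4:148000472-148000771, plus strand) has GATAA at -121 to -117 and, on the other strand, at -75 to -71. Of 24 sarcomere genes that rose and had a promoter in the table, 3 held a CArG box, 3 a MEF2 box, 12 GATAA and 9 CATTCC. The shares over the promoters of 11901 measured genes were 1.55% for the CArG box, 2.93% for the MEF2 box, 23.7% for GATAA and 15.3% for CATTCC, and over all 27025 genes with a window 1.81%, 3.7%, 28.4% and 16.6%. Over the 350 genes of any kind that rose they were 2.86%, 5.71%, 26.0% and 20.3%, and over the 142 that fell 2.82%, 0.704%, 29.6% and 26.1%; these shares were not tested against each other. A match is a description of these letters and does not show a bound site.

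Genes of the sarcoplasmic reticulum, the calcium store that triggers contraction, rose in 12 of 22 cases and fell in none (1 had an unadjusted p under 0.05 and was lower). Pln, phospholamban, which holds back the calcium pump, had 12.81 and 12.57 in cardiac bodies, against 4.83 and 5.97 in embryonic bodies (7.29 ± 0.38, adjusted p = 0.00279). Slc8a1, the sodium-calcium exchanger, rose by 4.05 ± 0.28 and Ryr2, the calcium release channel, by 3.98 ± 0.30. Casq2, the calcium buffer of the cardiac store, had 6.88 and 6.81 against 4.39 and 4.32 in embryonic bodies (2.49 ± 0.16). Its skeletal muscle paralog Casq1 changed by more, 3.97 ± 0.39, with 9.48 and 8.43 in cardiac bodies, against 4.90 and 5.06 in embryonic bodies, and Trdn, triadin, by 3.51 ± 0.50. The other pump regulator, Sln, sarcolipin, differed between the day 14 samples (6.99 and 5.18, against 4.25 and 4.02 in embryonic bodies). Its change of 1.95 ± 0.57 did not pass (adjusted p = 0.158) and was 2.86 without replicate 2 of day 14. The pump of fast skeletal muscle, Atp2a1, had a change of -0.15 ± 0.24. Counts were 4 without replicate 1 of day 7, 5 without replicate 2 of day 7, and 6 and 8 without replicate 1 and replicate 2 of day 14. Pln, Slc8a1, Ryr2 and Casq2 passed without each of the 4.

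Ion channels of the heart rose in 7 of 23 cases and fell in none (0 at an unadjusted p under 0.05). Kcnj5, a subunit of the potassium channel opened by acetylcholine, had 10.88 and 9.66 in cardiac bodies, against 6.0 and 5.13 in embryonic bodies (4.70 ± 0.53, adjusted p = 0.0157). Its partner subunit Kcnj3 had 9.55 and 8.92 in cardiac bodies, against 7.22 and 8.18 in embryonic bodies (1.54 ± 0.42, adjusted p = 0.139), and 7.31 and 7.91 in ES cells. Kcne1, a subunit of the slow repolarizing potassium current, rose by 3.08 ± 0.41 and Kcnh2, the channel of the rapid one, by 2.75 ± 0.34. Cacna1c, the pore of the L-type calcium channel, rose by 2.71 ± 0.21 and its auxiliary subunit Cacna2d2 by 2.99 ± 0.24. Of the T-type calcium channels, Cacna1h rose by 1.86 ± 0.26. Cacna1g did not pass (2.11 ± 0.39, adjusted p = 0.0576), though it did without weakly expressed clusters. Its change was 2.70 without replicate 2 of day 14. Replicate 1 of day 14 exceeded replicate 2 in 20 of 23 members (median 0.41), and the part this plays was not tested. Without replicate 1 of day 14, or without either sample of day 7, 2 channels passed, Cacna1c and Cacna2d2.

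**Figure D2:**
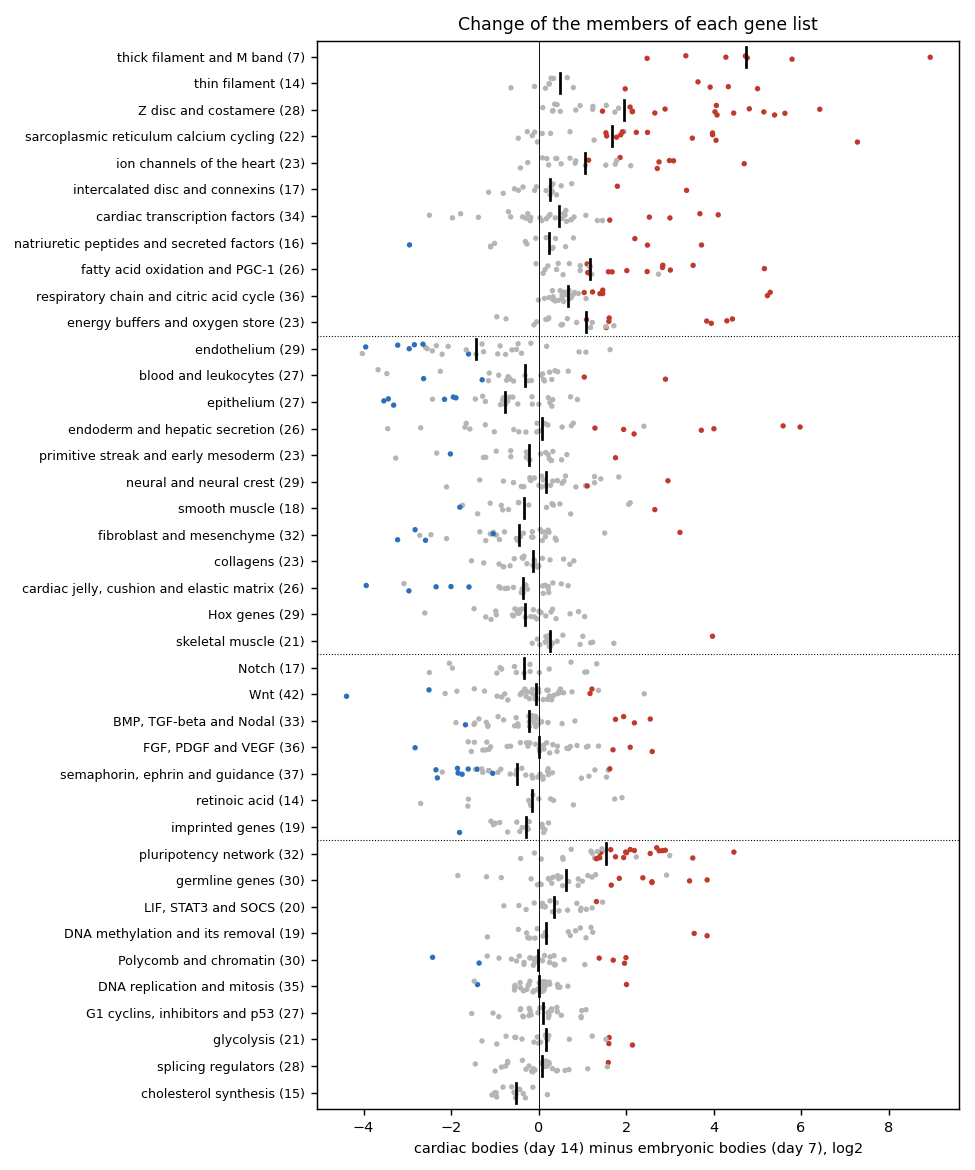
Change of each measured member of the 40 gene lists (day 14 minus day 7, log2), red for members that rose, blue for those that fell and grey for the rest; black bars are list medians, numbers in brackets the members measured, and dotted lines part the sections. Thick filament genes lie furthest right with a median of 4.73, pluripotency genes have a median of 1.55, and endothelial genes lie furthest left with -1.43.

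In the list for the intercalated disc, which joins heart muscle cells end to end, 2 of 17 members rose and none fell (1 at an unadjusted p under 0.05). Ctnna3, the alpha-catenin of heart and testis, had 8.49 and 7.66 in cardiac bodies, against 4.66 and 4.72 in embryonic bodies (3.38 ± 0.30, adjusted p = 0.0089), while its widely expressed paralog Ctnna1 had a change of 0.28 ± 0.18. Nexn, which binds actin, rose by 1.80 ± 0.24. Neither passed without a sample of day 7.

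Among cardiac transcription factors 5 of 34 rose and none fell (3 at an unadjusted p under 0.05). Tbx5, a T-box factor of atria and left ventricle, had 10.25 and 9.30 in cardiac bodies, against 6.32 and 5.03 in embryonic bodies (4.10 ± 0.53, adjusted p = 0.023). Irx4, a homeobox factor of the ventricles, rose by 3.69 ± 0.28, Myocd, the coactivator myocardin, by 3.0 ± 0.22, Hopx by 2.53 ± 0.28 and Nkx2-5 by 1.63 ± 0.24. Tbx20 was high in cardiac bodies (12.37 and 11.73) and unevenly so in embryonic bodies (11.59 and 9.59), and its change of 1.46 ± 0.72 did not pass. Tbx3 was likewise uneven at day 7, at 9.76 and 7.14 with 9.58 and 10.01 in cardiac bodies. Its change of 1.34 ± 0.81 did not pass and was 2.65 without replicate 1 of day 7. Hand1, named after its values were seen, had 7.13 and 7.33 in cardiac bodies, against 10.53 and 6.69 in embryonic bodies. Its change of -1.38 ± 1.17 was -3.30 without replicate 2 of day 7 and 0.55 without replicate 1. Irx4 and Myocd passed without each of the 4 samples. The count of rises was 2 without either sample of day 14, 4 without replicate 1 of day 7 and 3 without replicate 2 of day 7. The list median of 0.459 became 0.503 without replicate 1 of day 7.

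Secreted factors of the heart changed in both directions, with 3 of 16 risen and 1 fallen. Nppa, atrial natriuretic peptide, had 8.50 and 9.64 in cardiac bodies, against 5.08 and 5.60 in embryonic bodies (3.72 ± 0.41, adjusted p = 0.0146), and Corin, the protease that activates it, rose by 2.49 ± 0.23. Nppb, the sister peptide, had a change of 0.80 ± 0.31 (adjusted p = 0.266). Adm, adrenomedullin, rose by 2.20 ± 0.31. Aplnr, the apelin receptor of early mesoderm and endothelium, had 5.64 and 5.12 in cardiac bodies, against 8.62 and 8.04 in embryonic bodies (-2.95 ± 0.30, adjusted p = 0.0125), and its ligand Apln a change of 0.17 ± 0.23. Without replicate 2 of day 7 none of the 3 rises passed, and without replicate 1 of either stage 1 did. The fall passed only without replicate 2 of day 7.

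Fuel genes rose with them, with 12 of 26 members of the fatty acid oxidation list risen and none fallen (0 at an unadjusted p under 0.05). The median change was 1.17, and against day 0 the list had a median of -0.31 at day 7 and of 0.63 at day 14. Ppargc1a, the coactivator PGC-1alpha that drives mitochondrial genes, had 9.40 and 9.02 in cardiac bodies, against 3.85 and 4.26 in embryonic bodies (5.16 ± 0.24, adjusted p = 0.00274). Pdk2, a kinase that turns off pyruvate dehydrogenase, rose by 3.01 ± 0.31, and Lpl, lipoprotein lipase, by 2.84 ± 0.27. Cpt1a, which carries fatty acids into mitochondria and is the form of liver and fetal heart, had 9.93 and 10.06 in cardiac bodies, against 6.58 and 6.34 in embryonic bodies (3.53 ± 0.20, adjusted p = 0.00328). ES cells had 10.12 and 9.85, so that the day 14 level lay within that of day 0. Cpt2, the enzyme of the next step, had a change of 0.41 ± 0.18. The receptor gene Esrrb, which is also a pluripotency gene, rose by 2.83 ± 0.19, and its relative Esrra had a change of 0.45 ± 0.20. Esrrb had 9.11 and 9.40 in cardiac bodies, against 6.41 and 6.43 in embryonic bodies, and 10.59 and 10.38 in ES cells. The count was 3 without replicate 1 of day 14, 4 without replicate 2 of day 14 and 5 without either sample of day 7. Ppargc1a, Cpt1a and Esrrb passed each time.

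Respiratory chain and citric acid cycle genes showed a small shift in most members: 7 of 36 rose and none fell (0 at an unadjusted p under 0.05), and in 34 of 36 both day 14 samples lay above both day 7 samples, as they did in 25.8% of all clusters. The median change was 0.68. The rises that exceeded this by far were those of the subunits particular to striated muscle, Cox6a2 (11.92 and 11.44 in cardiac bodies, against 6.64 and 6.14 in embryonic bodies; 5.29 ± 0.26, adjusted p = 0.00279) and Cox8b (5.23 ± 0.41). Cox6a1, the general form of the Cox6a2 subunit, had 11.25 and 10.96 in cardiac bodies, against 10.47 and 10.59 in embryonic bodies (0.57 ± 0.19, adjusted p = 0.19). Uqcrq, Idh3a, Ogdh and Ndufb9 rose by 1.23 to 1.47. Their day 14 minus day 0 differences were 0.55, 0.39, 0.81 and 0.90, none with an adjusted p under 0.05 in limma. Against day 0 the list had a median of -0.35 at day 7 and of 0.365 at day 14, from samples shared with the first comparison. Without any single sample of the 4 the same 2 genes passed, Cox6a2 and Cox8b.

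In the list of energy buffers and oxygen store 8 of 23 members rose and none fell (1 at an unadjusted p under 0.05). The median change was 1.09, and against day 0 the list had a median of -0.25 at day 7 and of 0.75 at day 14. Mb, myoglobin, had 10.46 and 9.63 in cardiac bodies, against 5.56 and 5.67 in embryonic bodies (4.43 ± 0.31, adjusted p = 0.00512). Pygm, glycogen phosphorylase of muscle, rose by 4.30 ± 0.30, Pgam2, phosphoglycerate mutase of muscle, by 3.95 ± 0.30, and Art3 by 3.84 ± 0.23. Hk1, a hexokinase, rose by 1.61 ± 0.22, and its paralog Hk2 had a change of -0.11 ± 0.21. Ckm, creatine kinase of muscle, had 8.36 and 7.32 in cardiac bodies, against 6.18 and 6.05 in embryonic bodies (1.72 ± 0.36, adjusted p = 0.0753). Its change was 2.24 without replicate 2 of day 14. The count was 4 or 5 without any single sample of the 4, and Mb, Pygm, Pgam2 and Art3 passed each time. Over these 11 lists of the maturing heart cell, 83 of 246 genes rose (33.7%) and 1 fell. The rises include genes that returned toward the level of ES cells, such as Cpt1a and Esrrb. Their day 14 minus day 0 differences were 0.0085 and -1.23.

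**Figure D3:**
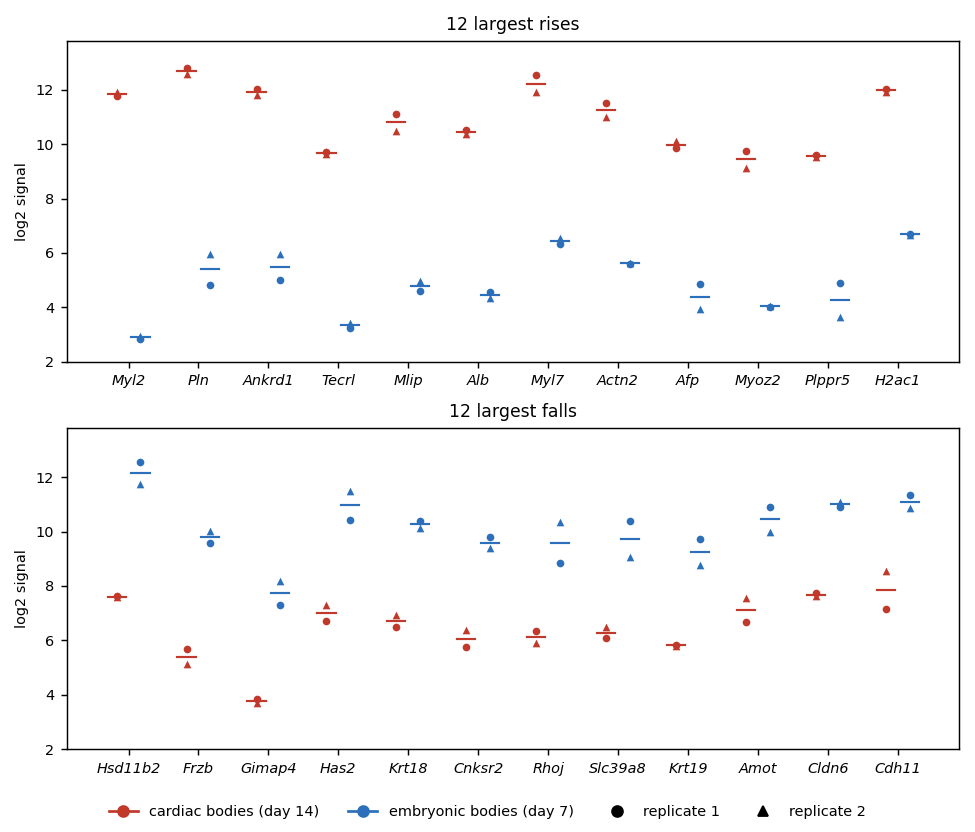
Log2 signal in each sample of the 12 genes with the largest rise (above) and the 12 with the largest fall (below), leaving out predicted genes; circles are replicate 1, triangles replicate 2 and bars stage means, cardiac bodies in red left of embryonic bodies in blue. Stages do not overlap for any of them because the genes were chosen for it, and Rhoj, Slc39a8 and Cdh11 show the widest spread within a stage.

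Some of the largest rises lay outside the lists. Tecrl, a gene of the endoplasmic reticulum of heart muscle, had 9.69 and 9.65 in cardiac bodies, against 3.25 and 3.44 in embryonic bodies (6.33 ± 0.17, adjusted p = 0.000775). Mlip, which binds lamin, had 11.11 and 10.49 against 4.61 and 4.96 in embryonic bodies (6.02 ± 0.32). Plppr5, of a family of membrane proteins related to lipid phosphatases, had 9.62 and 9.52 against 4.88 and 3.63 in embryonic bodies (5.31 ± 0.41). Tecrl and Mlip passed without each of the 4 samples, and Plppr5 did not.

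Among the lineages that receded, the endothelial list had the lowest median. Of 29 measured endothelial genes 6 fell and none rose (3 were higher at an unadjusted p under 0.05), with a median of -1.43. Gimap4 had 3.86 and 3.70 in cardiac bodies, against 7.29 and 8.18 in embryonic bodies (-3.95 ± 0.32, adjusted p = 0.00648). Cdh5, the cadherin of endothelial junctions, had 6.64 and 6.58 against 9.41 and 10.26 in embryonic bodies (-3.22 ± 0.31, adjusted p = 0.0107). The VEGF receptor Flt1 fell by 2.96 ± 0.28 and Kdr by 2.84 ± 0.32, the transcription factor Fli1 by 2.64 ± 0.39 and the receptor Tie1 by 1.60 ± 0.28. Day 14 minus day 0 was 1.41 in Cdh5 (adjusted p = 0.086), 0.78 in Fli1, 0.46 in Kdr, 0.30 in Flt1, 0.14 in Tie1 and 0.13 in Gimap4.

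The day 7 samples differed in this list, replicate 1 minus replicate 2 having a median of -0.90, with 6 of 29 members higher in replicate 1. Emcn, endomucin, named after its values were seen, shows it most: 4.31 and 4.55 in cardiac bodies, against 6.87 and 10.05 in embryonic bodies (-4.03 ± 0.97, adjusted p = 0.105). Without replicate 1 of day 7 its change was -5.62. Erg, the relative of Fli1, did not pass (-2.07, adjusted p = 0.0878) and had -2.79 without that replicate. Tek, the relative of Tie1, had a change of -2.59 ± 0.49 (adjusted p = 0.0606). The count of falls was 11 without replicate 1 of day 7 and 5 without replicate 2, but 0 without replicate 1 of day 14 and 1 without replicate 2 of day 14. What part the difference between the day 7 samples has in the list was not tested. The mean signal over the 29 genes was 6.09 and 6.13 in cardiac bodies, against 7.17 and 7.94 in embryonic bodies, and 6.03 and 6.14 in ES cells.

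Blood genes gave 2 rises and 2 falls among 27. Lmo2, a factor of blood precursors, fell by 1.29 ± 0.21 and Lcp1, an actin bundler of leukocytes, fell by 2.63 ± 0.40. Laptm5, a lysosomal gene of leukocytes, rose by 2.90 ± 0.33 and Spi1, a factor of myeloid cells, by 1.04 ± 0.18. At day 14 against day 0 their differences were -1.39 and 0.09. Embryonic globins, named after their values were seen, were high in 1 embryonic body sample. Hba-x had 7.07 and 6.92 in cardiac bodies, against 12.31 and 8.62 in embryonic bodies (-3.47 ± 1.11, adjusted p = 0.189), and Hbb-y 4.57 and 4.47 against 10.48 and 5.90 in embryonic bodies (-3.67 ± 1.38, adjusted p = 0.252). Without replicate 2 of day 7, which leaves 1 array for that stage, the changes were -5.32 and -5.96. Of the 27 genes 22 were higher in replicate 1 of day 7. No call of the list held without either sample of day 14, and the sign of its median of -0.31 turned without replicate 1 of day 7, to 0.10.

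Epithelial genes fell in 6 of 27 cases and rose in none (2 at an unadjusted p under 0.05), with a median of -0.76. Krt18, a keratin of simple epithelia, had 6.51 and 6.94 in cardiac bodies, against 10.38 and 10.14 in embryonic bodies (-3.54 ± 0.23, adjusted p = 0.0044). Krt19 fell by 3.44 ± 0.37 and the tight junction gene Cldn6 fell by 3.31 ± 0.20, with 7.75 and 7.61 in cardiac bodies, against 10.89 and 11.09 in embryonic bodies. Prss8, a membrane protease, fell by 2.15 ± 0.17, Ocln, occludin, by 1.95 ± 0.23 and Cldn7 fell by 1.89 ± 0.26, while their relative Cldn3 had a change of -0.87 ± 0.36 (adjusted p = 0.293). Neither sample of a stage was higher throughout, since replicate 1 exceeded replicate 2 in 15 of 27 members at day 14 and in 14 at day 7. The count was 3 without replicate 1 of day 14, 5 without replicate 2 of day 7 and 4 without each of the others; Krt18, Cldn6 and Prss8 passed each time.

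Genes of endoderm and hepatic secretion gave rises. Of 26 measured members 7 rose and none fell (5 were lower at an unadjusted p under 0.05), and the 7 are products that fetal liver and yolk sac secrete. Alb, albumin, had 10.51 and 10.36 in cardiac bodies, against 4.57 and 4.35 in embryonic bodies (5.98 ± 0.19, adjusted p = 0.00107). Afp, alpha-fetoprotein, had 9.84 and 10.13 against 4.86 and 3.93 in embryonic bodies (5.59 ± 0.33). Trf, transferrin, rose by 4.01 ± 0.22, Ahsg, fetuin A, by 3.72 ± 0.27, and the fibrinogen chains Fgg and Fga by 2.18 ± 0.22 and 1.94 ± 0.22. Fgb, the remaining chain, had 8.15 and 8.59 in cardiac bodies, against 6.87 and 5.05 in embryonic bodies (2.41 ± 0.58, adjusted p = 0.106). Its change was 3.32 without replicate 1 of day 7. Alb, Afp, Trf and Ahsg passed without each of the 4 samples. Replicate 1 of day 7 exceeded replicate 2 in 21 of the 26 genes (median 0.88), which was not tested further, and the median change of 0.08 took either sign, from -0.20 without replicate 2 of day 7 to 0.63 without replicate 1.

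Mesenchyme and the matrix of the early heart also receded in part. In the fibroblast list 4 of 32 fell and 1 rose. Cdh11, a cadherin of mesenchyme, had 7.17 and 8.56 in cardiac bodies, against 11.33 and 10.85 in embryonic bodies (-3.22 ± 0.48, adjusted p = 0.0332), and remained above the 4.58 and 5.03 of ES cells. Pdgfrb, a receptor of pericytes and mesenchyme, fell by 2.82 ± 0.34 and Igfbp4 by 2.59 ± 0.25, whereas Igfbp7 rose by 3.23 ± 0.22. Their relatives Pdgfra and Igfbp5 had changes of -1.21 ± 0.74 and -0.90 ± 0.53. The falls numbered 0 without replicate 1 of day 14, 1 without replicate 2 of day 14, and 3 without either sample of day 7. Of 23 collagens none passed, and 2 were higher and 3 lower at an unadjusted p under 0.05 in limma.

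Of 26 genes of cardiac jelly, cushions and elastic matrix 5 fell and none rose (0 at an unadjusted p under 0.05). Has2, which makes the hyaluronan of cardiac jelly, had 6.72 and 7.31 in cardiac bodies, against 10.43 and 11.48 in embryonic bodies (-3.94 ± 0.39, adjusted p = 0.0118). The other hyaluronan synthases did not follow, with changes of 0.33 ± 0.26 for Has1 and 0.52 ± 0.30 for Has3. Vcan, versican, which hyaluronan binds, fell by 1.59 ± 0.23, the hyaluronan receptor Cd44 by 2.00 ± 0.23, Mfap4 by 2.34 ± 0.21 and Frem1 fell by 2.97 ± 0.37. Hapln1, the link protein between hyaluronan and versican, had 4.77 and 4.57 in cardiac bodies, against 6.46 and 9.04 in embryonic bodies (-3.08 ± 0.79, adjusted p = 0.123). Its change was -4.37 without replicate 1 of day 7. None of the falls passed without either sample of day 14, 4 passed without replicate 1 of day 7 and 3 without replicate 2.

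Hox genes, which mark position along the body axis, gave no call among 29, with 1 higher and 0 lower at an unadjusted p under 0.05 in limma. The day 7 samples differed in this list, and 27 of 29 members had more signal in replicate 1 (median difference 0.79). Hoxc8, named after its values were seen, had 5.65 and 5.20 in cardiac bodies, against 10.33 and 5.72 in embryonic bodies (-2.60 ± 1.39, adjusted p = 0.421). Its change was -4.91 without replicate 2 of day 7, a fit in which day 7 is 1 array and its spread is not measured. The median change of -0.30 became 0.31 without replicate 1 of day 7.

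**Figure D4:**
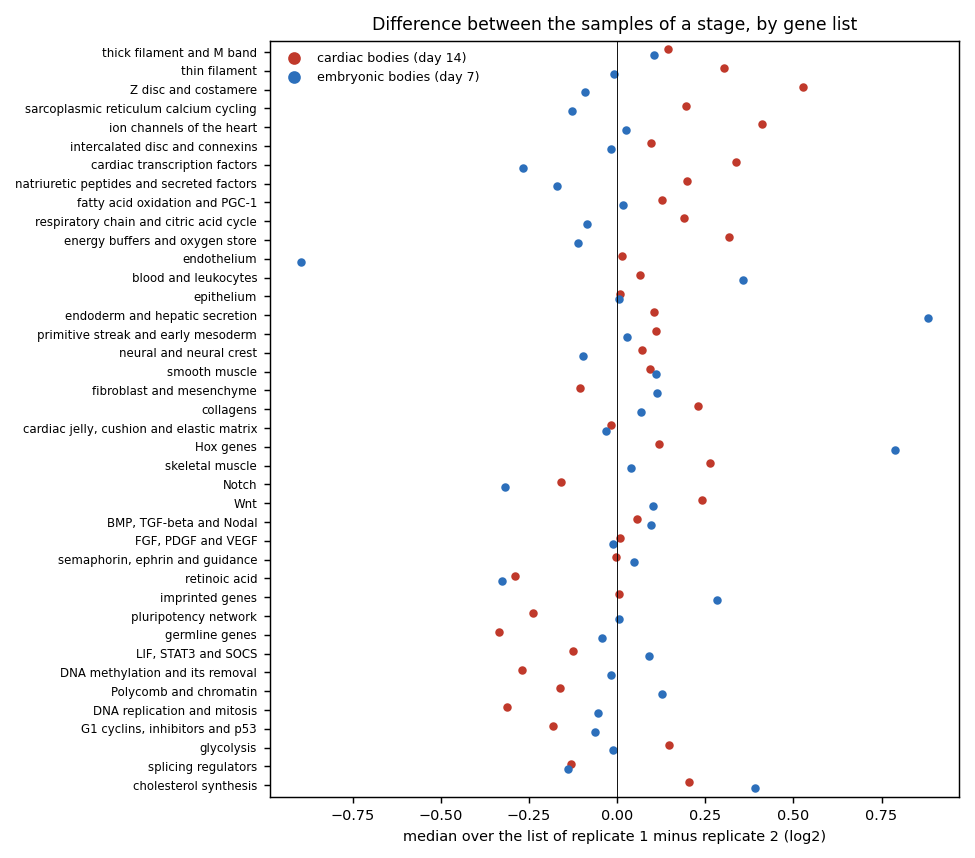
Median over the members of each gene list of replicate 1 minus replicate 2 (log2), for cardiac bodies in red and embryonic bodies in blue. Embryonic bodies differed most in endothelium (-0.90), endoderm (0.88) and Hox genes (0.79), and cardiac bodies in the Z disc list (0.53) and, the other way, in germline genes (-0.34).

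Guidance genes, which steer growing axons and vessels, had more falls than rises. Of 37 semaphorin, ephrin and other guidance genes 9 fell and 1 rose, with a median of -0.50. Slit2, a repellent ligand, had 5.86 and 6.93 in cardiac bodies, against 9.06 and 8.43 in embryonic bodies (-2.35 ± 0.40, adjusted p = 0.0474), and its receptor Robo2 fell by 1.84 ± 0.32, while the receptor Robo1 had a change of -0.50 ± 0.21. Plxnd1, a semaphorin receptor of vessels, fell by 2.32 ± 0.30, Sema5a by 1.86 ± 0.20 and Sema6a by 1.75 ± 0.21. The gene that rose was Epha2, an Eph receptor (1.63 ± 0.17). It had 9.11 and 9.13 in cardiac bodies, against 7.56 and 7.43 in embryonic bodies, and 9.43 and 9.31 in ES cells. Sema3a had a change of -1.44 ± 0.48 (adjusted p = 0.204), and of -2.20 without replicate 1 of day 7. None of the falls passed without either sample of day 14, and 2 passed without either sample of day 7.

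Of 42 Wnt genes 2 fell and 2 rose. Frzb, a secreted Wnt antagonist of the Sfrp family, had 5.67 and 5.12 in cardiac bodies, against 9.57 and 10.00 in embryonic bodies (-4.39 ± 0.28, adjusted p = 0.00426), and passed without each of the 4 samples. Lgr5, the R-spondin receptor, had 5.45 and 5.49 against 8.22 and 7.73 in embryonic bodies (-2.51 ± 0.22, adjusted p = 0.00825). Sfrp1, of the same family as Frzb, had a change of 0.57 ± 0.40, and Wif1, another antagonist, rose by 1.22 ± 0.18, as did the ligand Wnt8a by 1.17 ± 0.19. Neither rise passed without any single sample of the 4, and the fall of Lgr5 did not pass without either sample of day 14.

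In the BMP, TGF-beta and Nodal list 4 of 33 rose and 1 fell. The 4 are ligands and the coreceptor of the Nodal branch, which is also active in ES cells. All 4 also belong to the pluripotency list and count among its rises. Nodal had 9.26 and 9.40 in cardiac bodies, against 7.59 and 7.56 in embryonic bodies (1.76 ± 0.17, adjusted p = 0.0107), and 9.20 and 9.28 in ES cells. Tdgf1, its coreceptor, rose by 2.19 ± 0.29, the inhibitor Lefty1 by 1.94 ± 0.32 and Gdf3, a related ligand, by 2.55 ± 0.19. Id1, a target of BMP signals, fell by 1.67 ± 0.21, and its paralog Id3 had a change of -1.16 ± 0.30 (adjusted p = 0.124). Of the 5 calls, Gdf3 passed without each of the 4 samples. In the FGF, PDGF and VEGF list 3 of 36 rose, Fgf1 by 2.60 ± 0.32, Fgf4 by 2.09 ± 0.17 and the feedback inhibitor Spry4 by 1.70 ± 0.23, and Pdgfrb fell; none of the 3 rises passed in all 4 fits that left out a sample of day 14 or day 7. Day 14 minus day 0 was 2.00 in Fgf1, -0.56 in Fgf4 and -0.77 in Spry4. None of 17 Notch genes passed, with 4 higher and 6 lower at an unadjusted p under 0.05 in limma, and none of 14 retinoic acid genes, with 2 higher and 3 lower. Without replicate 1 of day 7 the list medians of -0.333 for Notch and -0.154 for retinoic acid became -0.625 and -0.218.

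The pluripotency network came back in part. Of 32 measured members 18 rose and none fell (0 at an unadjusted p under 0.05), with a median of 1.55. The same members had a median of -2.53 at day 7 against day 0, and of -0.56 at day 14 against day 0; these comparisons share samples with the first. Pou5f1, the factor Oct4, had 11.05 and 11.18 in cardiac bodies, against 8.37 and 8.36 in embryonic bodies (2.75 ± 0.17, adjusted p = 0.00389), and 11.87 and 11.96 in ES cells. Nanog is given for its levels only, outside the rule for named genes. It had 12.16 and 12.34 in cardiac bodies, against 10.30 and 10.22 in embryonic bodies, and 12.60 and 12.83 in ES cells. Both lay in all cardiac body samples between the other stages. Dppa2 rose by 4.46 ± 0.66, Nr0b1, a nuclear receptor of ES cells, by 3.52 ± 0.25, Utf1 by 2.90 ± 0.18 and Zfp42 by 2.70 ± 0.24. Among their partners that did not pass, Sox2 had 10.07 and 10.66 in cardiac bodies, against 8.68 and 9.50 in embryonic bodies (1.28 ± 0.34, adjusted p = 0.132). Klf4 had a change of 1.22 ± 0.26 (adjusted p = 0.0799) and Dppa4 of 2.23 ± 0.58 (adjusted p = 0.127).

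These genes were higher in the cardiac body sample in which muscle genes were lower: 4 of 32 were higher in replicate 1 of day 14, and replicate 1 minus replicate 2 had a median of -0.24. Over all clusters that median was -0.09. The count was 6 without replicate 1 of day 14, 7 without replicate 2 of day 14, 10 without replicate 1 of day 7 and 7 without replicate 2. Pou5f1, Nr0b1, Utf1, Esrrb and Gdf3 passed each time.

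Genes of the germline rose in 7 of 30 cases and fell in none (3 at an unadjusted p under 0.05). Hormad1, a protein of meiotic chromosomes, had 9.28 and 9.26 in cardiac bodies, against 5.55 and 5.29 in embryonic bodies (3.85 ± 0.20, adjusted p = 0.00279), and 10.81 and 10.48 in ES cells. Mael, of the piRNA pathway, rose by 3.45 ± 0.39, Morc1 by 2.59 ± 0.27, Mov10l1, a helicase of that pathway, by 2.59 ± 0.34, and the RNA-binding protein gene Dazl by 2.38 ± 0.33. The count was 4 without either sample of day 14 and 2 without either of day 7, and Hormad1 passed each time. Dnmt3l, the cofactor of new DNA methylation, had 10.33 and 10.88 in cardiac bodies, against 6.64 and 6.87 in embryonic bodies (3.85 ± 0.26, adjusted p = 0.00498), and passed without each of the 4 samples. The enzymes it assists had changes of 0.95 ± 0.19 for Dnmt3a (adjusted p = 0.0669) and 0.84 ± 0.26 for Dnmt3b. Apobec2, the other of 2 genes among 19 that rose in that list, is a muscle gene and changed by 3.56 ± 0.33.

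**Figure D5:**
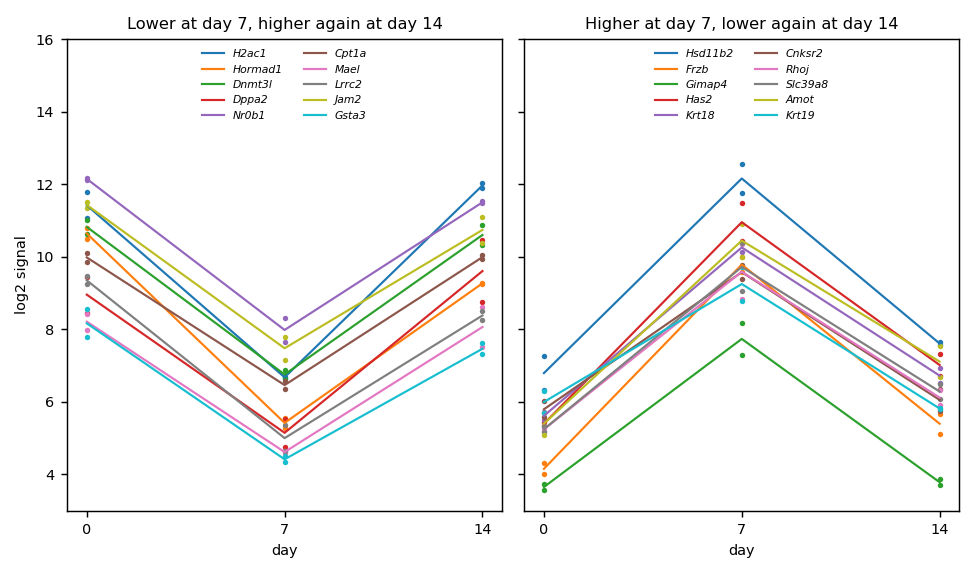
Log2 signal at day 0, 7 and 14 of the 10 genes with the largest fall to day 7 and rise to day 14 (left) and of the 10 with the largest rise to day 7 and fall to day 14 (right), each chosen by the smaller of its changes; points are samples and lines join stage means. The left lines dip and the right lines peak at day 7 because the genes were chosen for it; H2ac1 ends at 12.03 and 11.91, and Hsd11b2 peaks at 12.57 and 11.76.

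Genes chosen because they dipped at day 7 and rose again at day 14 are given as a description. H2ac1, a histone H2A gene, had 12.03 and 11.91 in cardiac bodies, against 6.69 and 6.67 in embryonic bodies, with 11.79 and 11.06 in ES cells. The others were Hormad1, Dnmt3l, Dppa2, Nr0b1, Cpt1a, Mael, Lrrc2, Jam2 and Gsta3, whose rises at day 14 lay between 3.05 and 4.46. Among the genes that peaked at day 7, Hsd11b2, which inactivates glucocorticoids, had 7.64 and 7.58 in cardiac bodies, against 12.57 and 11.76 in embryonic bodies, with 6.32 and 7.26 in ES cells. Amot, angiomotin, a regulator of Hippo signalling, had 6.68 and 7.55 in cardiac bodies, against 10.91 and 9.99 in embryonic bodies. Rhoj, a small GTPase of endothelium, had 6.33 and 5.90 against 8.83 and 10.35 in embryonic bodies, and Slc39a8, a metal transporter, 6.08 and 6.49 against 10.39 and 9.05. Cnksr2, a scaffold protein gene, had 5.74 and 6.36 against 9.78 and 9.38 in embryonic bodies. Frzb, Gimap4, Has2, Krt18 and Krt19 make up the 10.

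Chromatin genes changed in both directions, with 4 of 30 risen and 2 fallen. Phc1, a Polycomb subunit, had 11.59 and 11.82 in cardiac bodies, against 9.78 and 9.65 in embryonic bodies (2.00 ± 0.18, adjusted p = 0.00916), and 11.57 and 11.62 in ES cells. Cbx7, the chromobox subunit of ES cells, rose by 1.71 ± 0.17, while its relative Cbx2 had a change of -1.18 ± 0.26 (adjusted p = 0.0829) and Phc2, the relative of Phc1, of -0.62 ± 0.21. Jarid2 rose by 1.38 ± 0.19, and Ezh2, the methyltransferase it joins, had a change of -0.44 ± 0.22. Hdac9 rose by 1.96 ± 0.28, and Hdac7 and Hmga2 fell by 1.36 ± 0.20 and 2.42 ± 0.27. No call of this list passed without either sample of day 14, and 1 rise passed without either of day 7.

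The remaining lists gave few calls. Of 35 replication and mitosis genes Mybl2 rose by 2.01 ± 0.18 and Mki67, the antigen of cycling cells, fell by 1.40 ± 0.24. In that list 4 of 35 were higher in replicate 1 of day 14. Replicate 1 minus replicate 2 had a median of -0.31 there, against -0.09 over all clusters. Of 27 genes of G1 and p53 none passed, with 4 higher and 2 lower at an unadjusted p under 0.05 in limma. In the LIF and STAT3 list 1 of 20 rose, Stat3 by 1.32 ± 0.20. In glycolysis 3 of 21 rose, among them the phosphofructokinase Pfkp by 2.14 ± 0.23, with changes of 1.23 ± 0.22 for Pfkm (adjusted p = 0.0512) and -0.002 ± 0.31 for Pfkl. Among splicing regulators 1 of 28 rose, Rbfox1 by 1.59 ± 0.20, whose relative Rbfox2 had a change of 0.15 ± 0.20. None of 15 cholesterol synthesis genes passed, with 0 higher and 6 lower at an unadjusted p under 0.05 in limma; in 10 both day 14 samples lay below both day 7 samples, as in 22.3% of all clusters, and all 15 were higher in replicate 1 of day 7. Among 18 smooth muscle genes Des rose by 2.66 ± 0.31 and Tpm4 fell by 1.80 ± 0.20. In the neural list 2 of 29 rose, Stmn2 and Ncam1. In that of the primitive streak Nodal rose and Lhx1 fell by 2.02 ± 0.26 among 23, and of 19 imprinted genes Peg3 fell by 1.81 ± 0.24. Day 7 minus day 0 was -4.00 in Stmn2, -2.55 in Mybl2, -3.55 in Pfkp and -1.24 in Stat3, from samples shared with the changes above. Day 14 minus day 0 was -1.05, -0.54, -1.40 and 0.08 in the same order. In Ncam1, Rbfox1 and Des day 7 minus day 0 was -0.17, 0.23 and 0.13. No call of this paragraph passed without each of the 4 samples: Stmn2 passed without either sample of day 7, Mybl2 and Lhx1 without replicate 1 of day 7, Des without replicate 2 of day 14, and none of the others without any single one.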

How the data were processed

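Gene-level profiles of 6 samples were used: cardiac bodies (day 14), embryonic bodies (day 7) and undifferentiated ES cells (day 0), with 2 samples each. Per the labels' protocols, RNA was extracted with TRIzol, depleted of ribosomal RNA, amplified as cDNA and labelled with biotin for the Affymetrix Mouse Exon 1.0 ST array. The deposited values are log2 signals. Per the submitters' processing notes the authors used Affymetrix Power Tools and RMA, without versions. Precision is limited by the 2 arrays per stage. The values hold no detection calls, so low signals cannot be told from background, and changes from or to them may be understated. The 6 exon-level columns were left out.

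Gene symbols were those of the platform annotation: 14996 clusters had 1 symbol, 1019 several and 7317 none, and 27 symbols were updated through the RefSeq gene table of GRCm38.p6. Clusters with several symbols or none were tested and counted but not named. A linear model (limma 3.58.1, R 4.3.3, moderated and 2-sided) was fitted to the 6 samples together, so that all stages share an estimate of the spread, and p-values were adjusted by Benjamini-Hochberg over 23332 clusters. Of 1132 genes in 40 lists, 951 had a cluster, and the one with the highest mean stood for a gene. Lists share members, so their counts are not independent. Nodal, Tdgf1, Lefty1, Gdf3, Fgf4, Mybl2, Jarid2 and Esrrb, for example, also count among the rises of the pluripotency list. The members and lists were chosen with earlier results of these data known.

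Named genes were the 12 largest rises and falls that passed without overlap of the stages, up to 6 members per list that passed and up to 3 paralogs or partners of these that did not, and 10 genes each that dipped or peaked at day 7. A few were added after their values were seen, as stated, and Nanog was added for its levels only. The script was tested on simulated data with known answers. Alternatives were fits of 4 samples, centring, quantile normalization, a filter on low values, an intensity trend, a replicate block and leaving out each sample. Promoters came from RefSeq.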

Additional observations from a re-analysis of the deposited data

How the results depend on the processing

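With all samples 493 clusters were higher and 237 lower in cardiac bodies. Fitting only the 4 samples of the comparison gave 238 and 72. The filter at the 25th percentile of the mean gave 692 and 366, centring each sample on its median 457 and 285, quantile normalization 525 and 306, an intensity trend with robust estimation 537 and 268, and a required change of at least 1 gave 488 and 236. Leaving out 1 sample gave 116 to 238 higher and 10 to 90 lower clusters, the lowest without replicate 1 of the cardiac bodies; without an ES cell sample the counts were 238 and 72. The share of calls that were higher was 67.5%, 76.8% with 4 samples and 92.1% and 86.5% without replicate 1 and replicate 2 of the cardiac bodies, and centring turned the median over all clusters, 0.01, into -0.03. Fewer samples leave fewer residual degrees of freedom, and beyond that the cause was not tested. A stage left with 1 sample adds nothing to the estimate of spread, so p-values and counts of such fits rest on the other stages. The fits without an ES cell sample therefore repeat the fit of 4 samples for this comparison and are no separate check.

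Deviations of same-numbered samples from their stage means correlated little where day 7 was involved, at 0.0826 (day 7 with day 0) and 0.0913 (day 14 with day 7). Between day 14 and day 0 they correlated at 0.486, and what these samples share was not tested. With the replicate block 425 clusters were higher and 214 lower.

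None of the 150 named genes that passed changed direction in these settings. Of them 50 passed without each of the 4 samples of day 14 and day 7, and 59, 76, 83 and 78 passed without replicate 1 and 2 of day 14 and replicate 1 and 2 of day 7. The block took 18 of them below the threshold, centring 9 and quantile normalization 5. Some named genes that did not pass took either sign when 1 sample was left out: Tnnt3 ranged from -0.17 to 0.49, Atp2a1 from -0.38 to 0.0912, Apln from -0.0053 to 0.35, Hk2 from -0.28 to 0.066, Pfkl from -0.36 to 0.35, Rbfox2 from -0.051 to 0.34 and Hand1 from -3.30 to 0.55. With 2 samples per stage, changes near 1 are mostly below what the test can call.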
